A study of Arabidopsis thaliana with 9 samples.

Results

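In seedlings of the prp39a mutant, 107 Arabidopsis genes used far less of the transcript isoform that led in wild type, while in the smd1b mutant the share of that isoform fell by under 10 points or was higher. Their common feature is set by how they were chosen. A gene was included if its mean level was 5 TPM or more in each genotype and its isoform with the highest mean share in wild type fell by 25 or more percentage points of mean share in prp39a. All 3 prp39a shares also had to lie below all 3 wild-type shares, and the fall in smd1b had to be under 10 points. TPM is a transcript's abundance corrected for its length and scaled to a fixed total per library, and a share is an isoform's TPM over the summed TPM of its gene. These conditions were met by 107 of 15434 genes at that level, which is 0.693%, and by 0.987% of the 10843 of them that have at least 2 isoforms in the table of 34212 genes.

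The data are polyadenylated RNA of whole seedlings aged 14 days, grown on 1/2MS medium, with 3 biological replicates per genotype. The prp39a plants carried the allele prp39a-3 (SAIL_1249A03, an insertion line), the smd1b plants carried smd1b-3, and the wild type was Col-0, so that each mutation was represented by 1 allele. The same 3 wild-type libraries served as the reference for both mutants. Read numbers per library are unknown because TPM keep no depth.

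Introns are removed by the spliceosome, which begins by pairing the U1 small nuclear ribonucleoprotein (snRNP) with the 5′ splice site at the exon-intron border. PRP39 is known from yeast as a U1 snRNP protein that helps the particle settle on such sites, and plants have the homologue PRP39A. SmD1 is one of the Sm proteins that form the ring shared by the spliceosomal snRNPs. Where a splice site is used less or another is used instead, a gene yields a different mixture of isoforms, which can differ in untranslated regions, in the encoded protein or in stability.

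The targeted genes were checked first. PRP39 (the annotation's symbol for PRP39A, AT1G04080, chr1:1051312-1056827) stood at 5.44, 5.48 and 5.58 TPM in prp39a libraries, 53.6, 51.3 and 53.0 TPM in smd1b, and 48.5, 55.1 and 49.98 TPM in wild type. SMD1B (AT4G02840) had 49.97, 59.2 and 53.4 TPM in prp39a, was listed at 0, 0.138 and 0 TPM in smd1b, and had 53.1, 53.6 and 50.3 TPM in wild type. Each targeted gene was therefore low in its own mutant alone. Summed over 3 leaf markers, the libraries held 35162 to 41391 TPM in prp39a, 28180 to 33721 TPM in smd1b and 28477 to 34990 TPM in wild type. Summed over 6 root markers they held 1906 to 2462 TPM in prp39a, 2642 to 3400 TPM in smd1b and 2569 to 3328 TPM in wild type. The prp39a libraries lay above wild type in the leaf sum and below it in the root sum, and each of these differences came mostly from 1 gene. CAB1, a chlorophyll-binding protein gene, averaged 29922 TPM in prp39a and 22463 TPM in wild type, and PYK10, a root beta-glucosidase gene, averaged 2092 TPM in prp39a and 2884 TPM in wild type. The log2 differences between prp39a and wild type were −0.02 for RBCS1A and −0.05 for RCA among the leaf markers. Among the root markers they were 0.06 for TIP2;3, 0.03 for EXPA7, −0.16 for CASP1 and −0.20 for SHV2. None of the 3 leaf and 5 root markers tested passed the adjusted threshold in prp39a. The 5 flower markers summed to 4.30 to 6.63 TPM in prp39a, 4.86 to 7.37 TPM in smd1b and 5.84 to 7.73 TPM in wild type. In RNA of whole seedlings, fewer cells of a type and less RNA per cell cannot be told apart, and the part of tissue proportions in the isoform shares was not tested.

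Over the 107 genes, the median share of the wild-type dominant isoform was 25.2% in prp39a, 59.8% in smd1b and 60.0% in wild type. By library, the medians were 27.6%, 23.2% and 27.6% in prp39a, 56.7%, 61.0% and 61.7% in smd1b, and 58.7%, 60.7% and 61.9% in wild type. The 3 prp39a libraries were alike, and no single library of any genotype stood apart in these medians. The fall in prp39a ranged from 25.1 to 59.7 points with a median of 32.2 points, set by the rule, and the median gap between the lowest wild-type and the highest prp39a share was 22.7 points. In single genes the gap was as small as 1.82 points. The share varied between the libraries of a genotype by a median SD of 4.82 points in prp39a, 4.37 points in smd1b and 3.87 points in wild type. Over all 15434 genes, 170 genes (1.1%) fell by 25 points or more without overlap in prp39a, and 40 genes (0.259%) did so in smd1b. Of the 170, 107 fell by under 10 points in smd1b, 58 fell there by 10 to under 25 points, and 5 fell by 25 points or more in both mutants. The reverse rule, a loss in smd1b with under 10 points in prp39a, was met by 25 genes. All of these counts share the wild-type libraries. The opposite movement, a rise of the dominant isoform by 25 points or more without overlap in prp39a, was seen in 20 genes. Most genes had no room for such a rise. In the 15327 genes outside the 107, the wild-type dominant share had a median of 97.4% and a first quartile of 83.6%. Choosing the isoform highest in wild type also favours falls, so the 20 cannot be weighed against the 170.

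**Figure D1:**
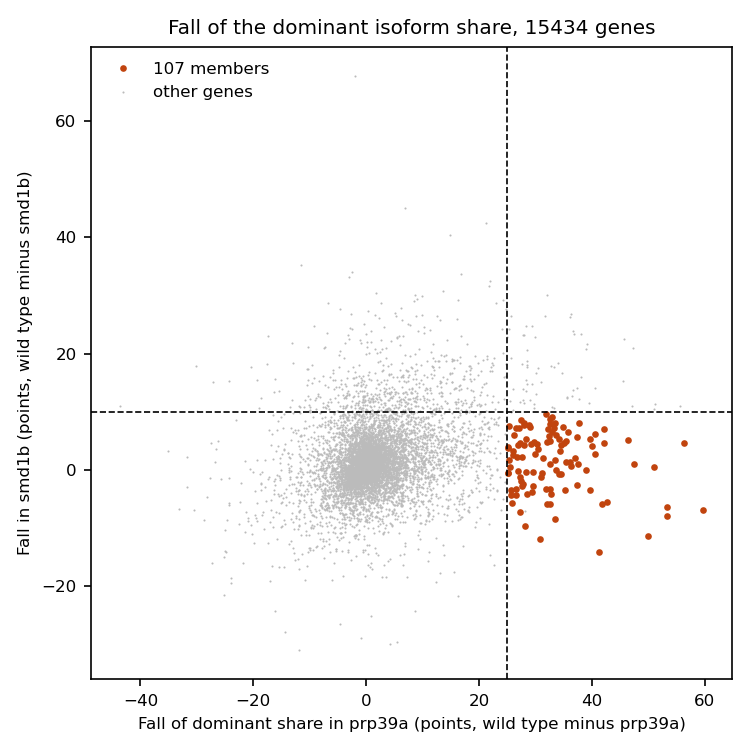
Each point is 1 of 15434 genes, with the fall of its wild-type dominant isoform share in prp39a on the horizontal axis and in smd1b on the vertical axis, in percentage points. The 107 members (orange) lie to the right of the dashed 25-point line and below the dashed 10-point line, where the rule placed them, and genes to the right of the first line and above the second (grey) fell by 10 points or more in both mutants.

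In absolute terms the dominant isoform was also scarce. Its median over the genes was 3.81 TPM in prp39a, 10.2 TPM in smd1b and 9.88 TPM in wild type, whereas the median gene total was 17.1 TPM in prp39a, 17.1 TPM in smd1b and 16.3 TPM in wild type. In 100 of the 107 genes all 3 prp39a values of the isoform's TPM lay below all 3 wild-type values, against 20.4% of all 15434 genes, a comparison that the rule itself largely fixes. The mean share was under 10% in prp39a in 24 genes and under 1% in 2, RUS3 and KICP-02. Another isoform had become the leading one in 74 of the 107 genes in prp39a and in 5 in smd1b.

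**Figure D2:**
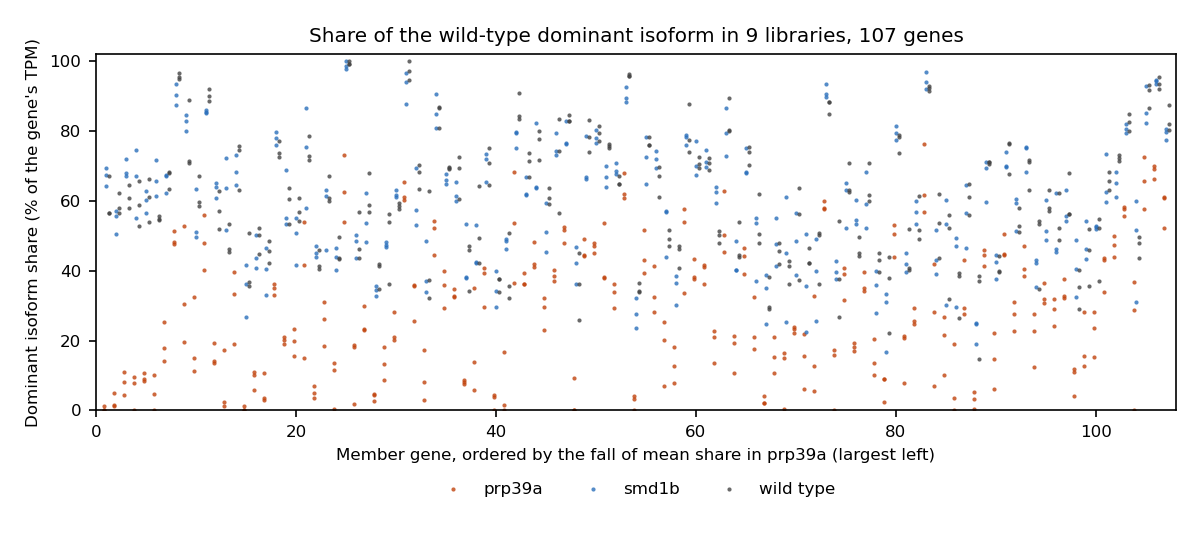
The share of the wild-type dominant isoform (percent of the gene's TPM, vertical axis) is drawn for 107 genes in order of their fall in prp39a, with 1 point per library for prp39a (orange), smd1b (blue) and wild type (grey). Orange points lie below grey ones in every gene by the rule, and blue and grey points overlap in 89 of the 107 genes. The smd1b shares lay wholly below wild type in 10.3% of these genes, against 11.6% of all 15434 genes. They lay wholly above it in 6.54%, against 4.16%. All genes include those with 1 isoform, whose share cannot change, and those with wider falls in smd1b, which the rule left out of the 107.

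Genes described below by role were grouped from the product names of the annotation after their values had been seen. The 8 genes for RNA processing and RNA binding had a median fall of 31.8 points in prp39a, the 12 for transcription and chromatin 32.6 points, the 6 for DNA repair and recombination 30.4 points, the 13 for membrane transport and trafficking 34.6 points and the 9 for protein kinases 31.9 points. The other 59 genes had a median fall of 31.8 points, inside the range of the groups.

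Among the genes of RNA processing and RNA binding was PRP39 itself, the gene mutated in the line. Its leading isoform, AT1G04080_P1, made up 4.68%, 0% and 9.99% in prp39a libraries, 71.7%, 61.5% and 65.5% in smd1b, and 55.5%, 54.7% and 54.5% in wild type. The isoform AT1G04080_s3 made up 48.2%, 55.8% and 51.8% in prp39a libraries, 7.67%, 10.9% and 5.05% in smd1b, and 6.48%, 6.29% and 6.13% in wild type. Shares of PRP39 in prp39a rest on a gene total of 5.50 ± 0.0736 TPM (SD, n = 3), just above the limit of the rule, and come from an allele disrupted by an insertion. SUA, a splicing factor found as suppressor of abi3-5 and known for its effect on the splicing of ABI3, a regulator of seed maturation (AT3G54230, chr3:20073028-20080384), had AT3G54230_P1 at 13.5%, 0.404% and 11.7% in prp39a libraries, 40.1%, 46.4% and 43.8% in smd1b, and 43.7%, 49.6% and 43.2% in wild type. In its place AT3G54230_P5 made up 32.6%, 40.0% and 41.8% in prp39a libraries, 2.40%, 0.194% and 0.00103% in smd1b, and 8.41%, 7.16% and 8.02% in wild type, so that this isoform was nearly missing in smd1b and led in prp39a. PRORP2, a protein-only RNase P that trims the 5′ ends of tRNA precursors, kept a mean dominant share of 43.7 ± 3.88% in prp39a, 70.0 ± 10.7% in smd1b and 76.5 ± 4.33% in wild type (SD, n = 3 each, as for all means below). TRZ4, a tRNase Z that acts at the 3′ ends of tRNA precursors, had 40.1 ± 5.47% in prp39a, 65.2 ± 7.25% in smd1b and 65.6 ± 2.61% in wild type. The remaining genes of this kind encode a polynucleotide adenylyltransferase family protein (AT1G28090, 37.3% in prp39a, 63.4% in smd1b and 70.6% in wild type), proteins with RNA recognition motifs (AT1G06960, 19.1% in prp39a, 61.8% in smd1b and 49.8% in wild type; AT3G09160, 23.2% in prp39a, 48.0% in smd1b and 52.4% in wild type) and the CRM domain protein LOH1 (25.6% in prp39a, 44.5% in smd1b and 53.0% in wild type). AT1G06960 was one of 3 genes in which the smd1b share exceeded wild type by 10 points or more, with PRP39 and EMB976.

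VAB2 (AT4G38510, chr4:18010812-18015173, minus strand) encodes a B subunit of the V1 sector of the vacuolar proton pump, the part that hydrolyses ATP. It was the sole gene whose losing and gaining isoforms could both be matched by name to RefSeq transcript models of TAIR10.1. The isoform AT4G38510.3 made up 2.67%, 4.28% and 4.60% in prp39a libraries, 32.7%, 34.4% and 35.6% in smd1b, and 34.7%, 41.2% and 41.9% in wild type. The isoform AT4G38510.2 made up 86.2%, 88.5% and 82.3% in prp39a libraries, 56.0%, 52.7% and 51.5% in smd1b, and 38.1%, 32.2% and 36.1% in wild type. Both mutants therefore stood above wild type in AT4G38510.2, prp39a by the wider margin, and VAB2 was the single gene in which the gaining isoform was 10 points or more higher in smd1b. In wild type the leading position was narrow, since AT4G38510.2 was ahead in 1 of the 3 libraries. A further isoform, AT4G38510_ID3, had 10.12%, 6.61% and 11.8% in prp39a, 8.17%, 9.77% and 6.997% in smd1b, and 24.96%, 24.1% and 19.2% in wild type. Its structure is not given in the sources used here.

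The models of the pair of VAB2 isoforms differ in the 5′ untranslated region. AT4G38510.3 has a second exon of 73 bases (chr4:18014903-18014975) that AT4G38510.2 lacks, and otherwise both continue with the exon that holds the start codon and encode 1464 coding bases. AT4G38510.5, which ends the same exon further downstream and has a coding length of 1485 bases, was listed at 0%, 0% and 0.202% in prp39a, 1.67%, 1.29% and 2.78% in smd1b, and 0.900%, 1.39% and 0.987% in wild type. The 5′ splice sites in this stretch are shown because the exon that separates both isoforms lies between them. Capitals mark the last 3 exon bases and the first 6 intron bases of each, the stretch that U1 snRNA pairs with, read 5′ to 3′ on the minus strand from RefSeq TAIR10.1.
Exon 1 of both isoforms, chr4:18015051-18015075: gaagaaaGAGGTACGTacactctaa
Exon 2 of AT4G38510.3, chr4:18014888-18014912: ctaaaatTGGGTAAAAtggaacgaa
Exon 2 of AT4G38510.5, chr4:18014869-18014893: aacgaatTAAGTAGATtcacgtcca
Exon 2 of AT4G38510.4, chr4:18014945-18014969: tgctctgAGGGTAAGTaatcccgtt
Exon 3 of AT4G38510.3, chr4:18014720-18014744: atcggcaTGGGTAAGAcgtccttta
Set against the sequence CAGGTAAGT, which pairs with U1 without a mismatch, the site of exon 1 matched in 7 of 9 positions and that of the 73-base exon in 5 of 9. The site of the next exon matched in 6 of 9, the alternative site of AT4G38510.5 in 5 of 9 and that of AT4G38510.4 in 7 of 9. These matches describe the letters of a single gene.

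**Figure D3:**
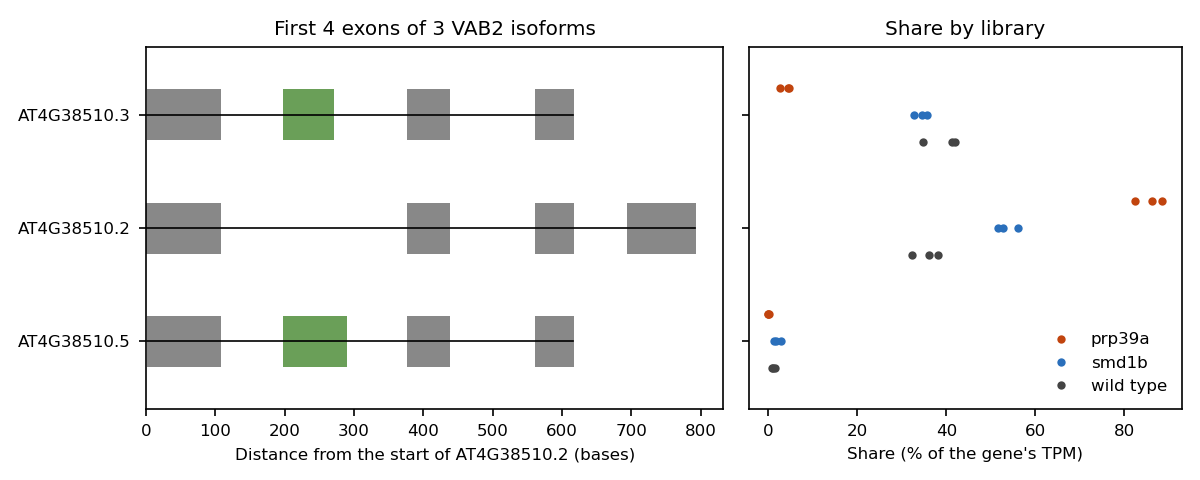
On the left, the first 4 exons of 3 VAB2 isoforms are drawn to scale by distance in bases from the start of AT4G38510.2, with the second exon that AT4G38510.2 lacks in green; on the right, each isoform's share of the VAB2 TPM (percent) is given with 1 point per library. AT4G38510.3 lies between 2.67% and 4.60% in prp39a, where AT4G38510.2 lies between 82.3% and 88.5%.

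Several other genes of membrane transport and trafficking were among the largest falls. RABG3B, a Rab GTPase of the late endosome and vacuole family (AT1G22740, chr1:8049090-8050784), had AT1G22740.1 at 1.33%, 1.51% and 4.95% in prp39a libraries, 55.6%, 50.5% and 57.0% in smd1b, and 56.6%, 62.1% and 57.99% in wild type, a fall of 56.3 points. Its largest gain, AT1G22740_ID6, averaged 30.4% in prp39a, 12.5% in smd1b and 4.79% in wild type; this isoform took part of the lost share and other isoforms the rest. KEA6, a potassium efflux antiporter (AT5G11800, chr5:3803315-3808273), had AT5G11800_P1 at 9.60%, 3.02e-08% and 7.76% in prp39a libraries, 67.1%, 74.5% and 55.0% in smd1b, and 58.7%, 52.7% and 65.8% in wild type. There AT5G11800_ID52 took most of the loss, with 51.1%, 52.6% and 54.5% in prp39a libraries, 2.65%, 5.11% and 7.34% in smd1b, and 5.71%, 6.84% and 8.34% in wild type. NHX5, an endosomal sodium and proton exchanger (AT1G54370, chr1:20293151-20297236), had AT1G54370_P1 at 10.08%, 11.0% and 5.78% in prp39a libraries, 40.8%, 43.6% and 50.2% in smd1b, and 44.7%, 52.2% and 50.2% in wild type. In KEA6 and NHX5 the smd1b and wild-type values overlapped, and all prp39a values lay far below both. The major facilitator superfamily gene AT3G05160 averaged 23.2% in prp39a, 62.0% in smd1b and 58.5% in wild type, the amino acid transporter family gene UMAMIT30 50.7% in prp39a, 78.5% in smd1b and 83.4% in wild type, and the golgin gene GC2 33.3% in prp39a, 62.2% in smd1b and 67.5% in wild type. SFH3, of the Sec14 family of phosphatidylinositol transfer proteins, averaged 25.2 ± 6.41% in prp39a, 56.8 ± 9.47% in smd1b and 62.6 ± 3.88% in wild type, and its isoform AT2G21540_P5 averaged 40.7 ± 6.06% in prp39a, 8.28 ± 2.69% in smd1b and 2.79 ± 1.53% in wild type.

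Transcription factors and chromatin proteins showed the same movement. GATA26, a zinc finger transcription factor of the GATA family (AT4G17570, chr4:9783782-9787528), had AT4G17570_P1 at 10.9%, 4.48% and 8.07% in prp39a libraries, 72.0%, 68.0% and 67.2% in smd1b, and 64.6%, 60.7% and 58.02% in wild type. Its second isoform AT4G17570_P3 made up 86.9%, 90.1% and 91.4% in prp39a libraries, 12.9%, 28.4% and 31.1% in smd1b, and 34.0%, 38.1% and 31.3% in wild type, so 1 other isoform took nearly the whole gene in prp39a. In smd1b the dominant isoform of GATA26 lay above wild type in all 3 libraries. BSH, the plant SNF5 subunit of SWI/SNF chromatin remodelling complexes (AT3G17590, chr3:6017166-6019724), had AT3G17590_P1 at 51.4%, 48.2% and 47.7% in prp39a libraries, 87.4%, 93.4% and 90.3% in smd1b, and 96.6%, 94.7% and 95.3% in wild type. Its AT3G17590_s1 was at 46.1%, 50.9% and 50.1% in prp39a libraries, 7.42%, 2.91% and 7.07% in smd1b, and 1.16%, 1.94% and 3.03% in wild type, so that a transcript of a few percent in wild type came to equal the leading one in prp39a. The 3 smd1b shares of AT3G17590_P1 also lay below the 3 wild-type shares, by 5.15 points on average. CMT2, a chromomethylase that methylates cytosines outside CG sites in heterochromatin, averaged 36.8 ± 19.8% in prp39a, 73.3 ± 14.5% in smd1b and 74.3 ± 3.71% in wild type, with the widest spread between prp39a libraries of all 107 genes. HSFA1D, a master activator of the heat response, averaged 43.2% in prp39a, 67.0% in smd1b and 75.7% in wild type. DPA, the dimerisation partner of E2F cell cycle factors, averaged 52.7% in prp39a, 78.1% in smd1b and 86.1% in wild type. NF-YA1, a CCAAT-binding subunit, averaged 16.6% in prp39a, 42.1% in smd1b and 44.3% in wild type, ALC, a helix-loop-helix factor of fruit opening, 26.5% in prp39a, 56.7% in smd1b and 54.0% in wild type, and PIL2, a relative of phytochrome-interacting factors, 19.5% in prp39a, 47.9% in smd1b and 46.7% in wild type. CPL4, a phosphatase of the RNA polymerase II tail, had a leading isoform that was nearly alone in wild type, with 62.1 ± 2.72% in prp39a, 92.7 ± 4.54% in smd1b and 97.2 ± 2.73% in wild type.

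DNA repair and recombination were represented by 6 genes. RecQl3, a helicase of the RecQ family (AT4G35740, chr4:16935988-16940372), had AT4G35740_P1 at 15.1%, 11.2% and 32.6% in prp39a libraries, 51.1%, 63.2% and 49.7% in smd1b, and 58.5%, 67.1% and 59.6% in wild type, and AT4G35740_JS3 averaged 37.3 ± 5.03% in prp39a, 15.8 ± 6.43% in smd1b and 13.3 ± 1.98% in wild type. RECQL2, another helicase of that family, averaged 8.17 ± 0.570% in prp39a, 43.2 ± 8.85% in smd1b and 42.3 ± 7.12% in wild type. ERCC1, a partner in the endonuclease that cuts beside bulky DNA lesions, averaged 6.05 ± 9.24% in prp39a, 47.9 ± 1.55% in smd1b and 39.4 ± 9.94% in wild type, and its prp39a libraries varied widely around a low mean. RECA3, an organellar RecA recombinase, averaged 64.9% in prp39a, 94.2% in smd1b and 92.2% in wild type, NTH2, an endonuclease III homologue of base excision repair, 20.9% in prp39a, 40.2% in smd1b and 47.4% in wild type, and the endonuclease V family gene AT4G31150 2.92% in prp39a, 22.9% in smd1b and 30.1% in wild type. In 5 of these genes another isoform had the highest mean share in prp39a, RECA3 being the exception.

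Kinases and immune receptors also belonged to the set. The 9 protein kinase genes had median dominant shares of 17.4% in prp39a, 52.6% in smd1b and 49.3% in wild type. PDK1, the phosphoinositide-dependent kinase that activates AGC kinases, averaged 17.4 ± 9.49% in prp39a, 52.6 ± 7.45% in smd1b and 49.3 ± 2.35% in wild type. MPK13, a mitogen-activated protein kinase (symbol ATMPK13 in the annotation), averaged 38.6 ± 1.68% in prp39a, 75.6 ± 3.48% in smd1b and 71.3 ± 13.6% in wild type, and CRK27, a cysteine-rich receptor-like kinase, 50.2 ± 5.09% in prp39a, 85.4 ± 5.02% in smd1b and 84.7 ± 3.43% in wild type. In CRK27 a single alternative, AT4G21230_ID2, averaged 49.8% in prp39a, 14.6% in smd1b and 15.3% in wild type, which is all that the leading isoform lost. AT5G66900, a disease resistance protein of the CC-NBS-LRR class (chr5:26714723-26717958), had AT5G66900_P2 at 10.8%, 8.97% and 8.32% in prp39a libraries, 56.6%, 60.2% and 62.7% in smd1b, and 53.9%, 61.0% and 66.1% in wild type. Its smd1b and wild-type shares overlapped.

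Of the remaining large falls, the largest of all was in RUS3 (a member of the ROOT UV-B SENSITIVE family, AT1G13770, chr1:4721574-4724520). Its AT1G13770_P1 made up 0%, 0% and 1.13% in prp39a libraries, 67.4%, 64.3% and 69.3% in smd1b, and 56.4%, 67.1% and 56.6% in wild type, and AT1G13770_P3 made up 43.4%, 45.9% and 38.5% in prp39a libraries, 11.1%, 9.58% and 15.1% in smd1b, and 15.4%, 4.97% and 7.74% in wild type. The leading isoform was thus listed at 0 in 2 of 3 prp39a libraries while the gene total stayed at 13.1 ± 1.24 TPM in prp39a, 12.4 ± 0.535 TPM in smd1b and 11.4 ± 0.510 TPM in wild type. The microtubule motor gene KICP-02 (AT3G50240, chr3:18623254-18628914) had AT3G50240_P1 at 1.33e-04%, 1.30% and 0.0102% in prp39a libraries, 36.2%, 41.7% and 26.6% in smd1b, and 36.7%, 35.6% and 50.8% in wild type. EMB976, a tetratricopeptide repeat protein named for its embryo-defective mutant (AT5G27270, chr5:9605484-9609804), had AT5G27270_P1 at 1.24%, 17.4% and 2.39% in prp39a libraries, 72.4%, 63.5% and 51.7% in smd1b, and 53.2%, 46.2% and 45.4% in wild type. In EMB976 the smd1b mean was 14.2 points above wild type, the widest excess in smd1b of the 107 genes.

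Metabolic enzymes with a large fall included DFC, a folylpolyglutamate synthetase of folate metabolism (AT3G10160, chr3:3139383-3144615), with AT3G10160_P1 at 14.1%, 17.9% and 25.3% in prp39a libraries, 67.2%, 62.4% and 67.3% in smd1b, and 68.4%, 63.5% and 67.9% in wild type. Its AT3G10160_ID3 averaged 78.5 ± 5.63% in prp39a, 32.4 ± 3.16% in smd1b and 30.8 ± 2.25% in wild type. COAB, which makes phosphopantothenoylcysteine on the way to coenzyme A (AT1G12350, chr1:4198337-4200849), had AT1G12350_P1 at 10.7%, 3.45% and 3.04% in prp39a libraries, 33.1%, 40.6% and 46.3% in smd1b, and 48.4%, 45.5% and 42.1% in wild type. The glycosyltransferase family gene AT1G71070 (chr1:26807183-26809520) varied little between libraries, with AT1G71070_P1 at 33.1%, 35.2% and 36.1% in prp39a libraries, 75.9%, 78.0% and 79.6% in smd1b, and 73.5%, 72.6% and 77.0% in wild type. Its AT1G71070_ID4 averaged 64.7 ± 1.68% in prp39a, 21.8 ± 2.12% in smd1b and 25.5 ± 2.26% in wild type. The GDSL lipase family gene AT1G31550 (chr1:11295446-11297379) averaged 15.6 ± 3.13% in prp39a, 63.2 ± 2.26% in smd1b and 57.3 ± 5.47% in wild type and the carboxypeptidase-like gene scpl4 (chr1:27562441-27565177) 30.6 ± 10.6% in prp39a, 68.5 ± 4.30% in smd1b and 71.2 ± 6.97% in wild type. In both genes a _P2 isoform gained somewhat more than the leading isoform lost. It averaged 79.3% in prp39a, 31.9% in smd1b and 34.1% in wild type of AT1G31550, and 66.0% in prp39a, 29.4% in smd1b and 23.3% in wild type of scpl4.

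Further enzymes and organelle proteins with smaller falls are given as examples. ETFQO, which passes electrons from amino acid breakdown to ubiquinone in mitochondria, averaged 12.9 ± 9.67% in prp39a, 47.5 ± 3.35% in smd1b and 48.9 ± 6.99% in wild type, and its prp39a libraries differed, with 1.71% in replicate 1 against 18.3% and 18.6% in the others. SCA3, an RNA polymerase of plastids, averaged 45.9 ± 2.84% in prp39a, 70.5 ± 6.85% in smd1b and 78.4 ± 4.57% in wild type, with AT2G24120_ID4 at 49.2% in prp39a, 24.3% in smd1b and 18.6% in wild type. In SCA3 the exchange was between 2 isoforms that held nearly all of the gene in each genotype. MSRB4, a methionine sulfoxide reductase that repairs oxidised proteins, averaged 46.7 ± 1.43% in prp39a, 78.2 ± 1.79% in smd1b and 79.3 ± 2.18% in wild type. GCS1, the glucosidase that trims the first glucose from N-glycans, averaged 44.6 ± 6.33% in prp39a, 71.9 ± 6.78% in smd1b and 76.7 ± 1.35% in wild type. THY-2, a thymidylate synthase of nucleotide synthesis, averaged 11.1 ± 9.64% in prp39a, 39.9 ± 2.58% in smd1b and 39.5 ± 13.8% in wild type, and its wild-type libraries spread about as widely as its prp39a libraries. ILL2, which releases auxin from amino acid conjugates, averaged 46.6 ± 3.40% in prp39a, 71.2 ± 2.42% in smd1b and 73.4 ± 5.09% in wild type, and AT5G56660_ID2 averaged 50.9% in prp39a, 23.9% in smd1b and 23.1% in wild type. In ILL2 the loss of 1 isoform was nearly equal to the gain of the other. NADP-ME4, a malic enzyme of plastids, averaged 68.4 ± 2.06% in prp39a, 94.1 ± 0.576% in smd1b and 93.6 ± 1.79% in wild type, so its leading isoform still held most of the gene in prp39a. XBAT32, a RING ubiquitin ligase with ankyrin repeats, averaged 37.2 ± 4.94% in prp39a, 60.1 ± 6.91% in smd1b and 65.5 ± 4.75% in wild type.

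The last genes of the 20 largest falls have little known of their function. AT1G22970, annotated as a cyclin-D1-binding protein (chr1:8130598-8132435), averaged 48.0 ± 7.94% in prp39a, 85.4 ± 0.415% in smd1b and 90.1 ± 1.73% in wild type, and its AT1G22970_ID3 averaged 49.3% in prp39a, 14.6% in smd1b and 9.87% in wild type. AT2G44420, of the N-terminal asparagine amidohydrolase family (chr2:18330447-18332936), averaged 20.1 ± 0.989% in prp39a, 59.1 ± 8.45% in smd1b and 59.1 ± 5.27% in wild type. AT2G46915, a protein with a domain of unknown function (chr2:19273899-19277773), averaged 19.5 ± 3.85% in prp39a, 49.2 ± 6.89% in smd1b and 57.2 ± 3.28% in wild type. AT5G44572, uncharacterised (chr5:17968092-17970342), averaged 34.3 ± 16.9% in prp39a, 82.5 ± 2.35% in smd1b and 77.0 ± 10.2% in wild type, and its single prp39a shares of 52.7%, 30.6% and 19.5% spread more than those of most genes.

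**Figure D4:**
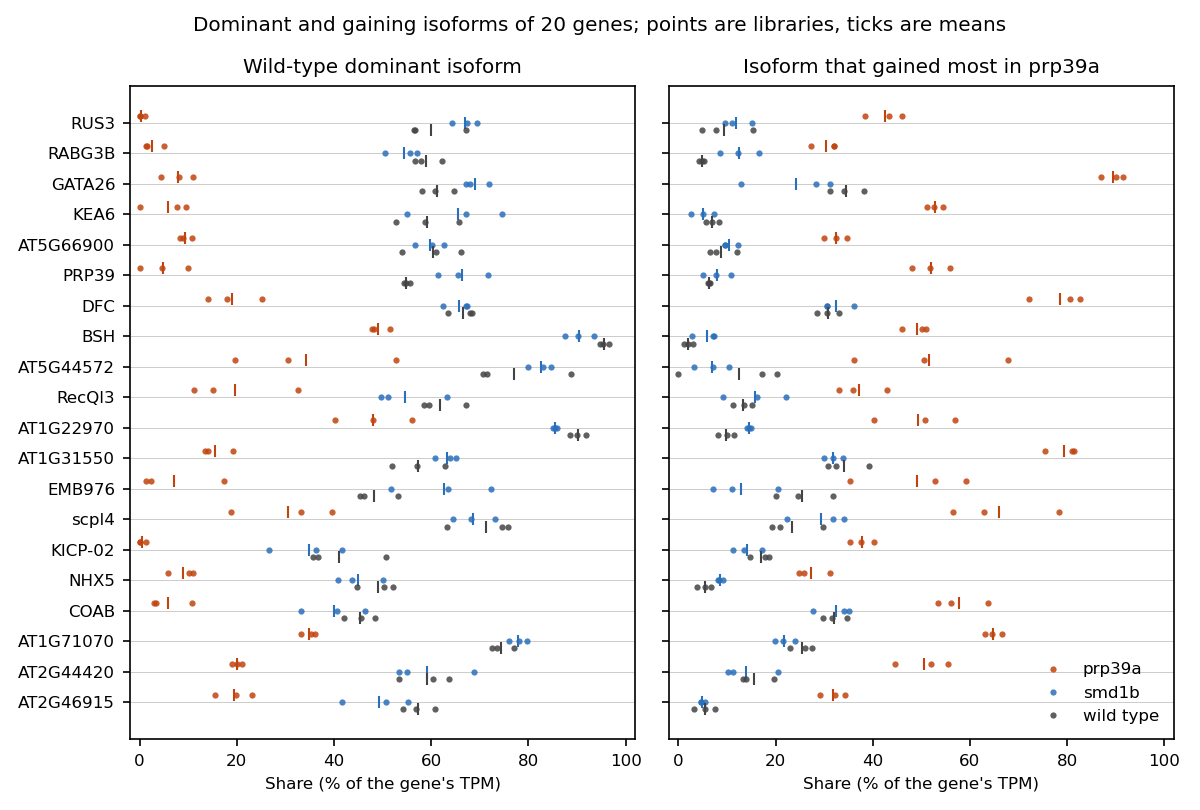
For the 20 genes with the largest falls, the share of the wild-type dominant isoform (left) and of the isoform that gained most in prp39a (right) is given in percent of the gene's TPM, with 1 point per library and a tick at the mean for prp39a (orange), smd1b (blue) and wild type (grey). On the left the orange points lie below the others in all 20 genes, and on the right they lie above them, with GATA26, AT1G31550 and DFC beyond 70% in each prp39a library.

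The isoform that gained most in prp39a, taken per gene as the one with the largest rise of mean share, had a median share of 38.0% in prp39a, 12.9% in smd1b and 12.7% in wild type. Its rise equalled a median of 75.4% of the fall of the dominant isoform, from 29.7% to 147%. It took 75% or more of the fall in 55 genes and under 50% in 13. It was already the second isoform of wild type in 60 genes, was under 10% in wild type in 42 and under 1% in 5. All 3 prp39a shares of it lay above all 3 wild-type shares in 103 genes. Choosing the largest rise makes such a count high, and the same count was not made over all genes. It is given as a description. In smd1b its mean was higher than wild type in 56 genes, close to an even division. By name, the dominant isoforms were of the _P class in 79 genes and the gaining ones of the _ID class in 43 and the _P class in 35. What these suffixes stand for is not given in the sources used here, so whether a gaining isoform retains an intron, skips an exon or moves a splice site was not determined outside VAB2.

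The rule limited a fall in smd1b to under 10 points and set no limit on a rise. The median fall in smd1b was 2.08 points, from −14.2 to 9.63 points, where a negative value is a higher share in smd1b. The mean differed from wild type by under 5 points in 63 genes. The 3 smd1b shares lay below the 3 wild-type shares in 11 genes (10.3%), against 11.6% of all 15434 genes. They lay above them in 7 genes (6.54%), against 4.16%. The lower ones were BSH, DPA, HSFA1D, UMAMIT30, AT1G22970, AT3G11880, AT1G28090, AT1G19880, AT1G80030, AT3G58720 and AT1G73480. The higher ones were GATA26, PRP39, AT3G05160, AT1G04300, AT1G06960, AT3G24040 and AT4G38930. Between the mutants, all 3 prp39a shares lay below all 3 smd1b shares in 104 genes, against 9.37% of all genes, and the exceptions were AT4G32970, LOH1 and AT1G58230. This comparison too follows in large part from the rule.

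In the fit of isoform shares over 21990 isoforms, the dominant isoform of 106 of the 107 genes entered, and that of AT1G13820 did not because its mean TPM over the 9 libraries was above 0.95 of the gene's mean TPM, the upper limit of the fit. Of the 106, 101 passed an adjusted p of 0.05 as lower in prp39a than in wild type, where 5.12% of all isoforms were lower and 5.49% higher. The 5 that did not were those of CMT2, AT4G32970, LOH1, PIL2 and AT1G58230, whose prp39a libraries had SDs of 8.53 to 19.8 points. Other genes with SDs in this range, such as AT5G44572 and scpl4, did pass. For smd1b against wild type, 1 passed, that of AT1G19880, against a background of 2.17% in either direction, 1.09% lower and 1.08% higher. For prp39a against smd1b, 99 passed as lower, where 6.63% of all isoforms were lower and 6.91% higher. The rule read both contrasts with wild type, so these counts describe the choice of genes and are read no further.

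Gene totals were not part of the rule apart from the minimum level. In prp39a, 30 of the 107 totals passed an adjusted p of 0.05 against wild type, 20 higher and 10 lower, where 4.13% of all 20585 genes passed, 1.73% higher and 2.39% lower. The libraries are those that chose the genes, so this count is a description. It fell to 12 without prp39a replicate 1, 16 without prp39a replicate 2, 18 without smd1b replicate 3, and 16, 12 and 15 without wild-type replicates 1, 2 and 3, and to 16 when only the prp39a and wild-type libraries were fitted. The median log2 fold change of all genes in this contrast was −0.07, and after scaling by size factors 24 totals were higher and 10 lower.

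Only 2 totals that passed changed by 1 or more on the log2 scale. PRP39 had a log2 fold change of −3.11 ± 0.0644 (SE) in prp39a. AT1G13820, an alpha/beta hydrolase family gene (chr1:4735474-4737910), had 8.47, 6.62 and 7.94 TPM in prp39a libraries, 29.3, 26.5 and 25.2 TPM in smd1b, and 36.4, 28.5 and 30.3 TPM in wild type, a log2 fold change of −1.98 ± 0.116 (SE). Its prp39a totals lay below every other library by a wide margin. The isoform AT1G13820_P1 had 62.5%, 53.9% and 73.1% in prp39a libraries, 98.6%, 97.8% and 100% in smd1b, and 100%, 99.1% and 99.1% in wild type, and AT1G13820_ID2 averaged 36.9 ± 9.62% in prp39a, 1.19 ± 1.10% in smd1b and 0.602 ± 0.521% in wild type. AT1G13820 was therefore the sole gene besides PRP39 in which a changed mixture came with a total more than 2-fold lower.

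The other totals that passed moved less. Those lower were AT5G48790, a gene for a LOW PSII ACCUMULATION family protein (−0.71 ± 0.0838, log2 fold change ± SE as for the following), AT1G06960 (−0.64 ± 0.0912), the phosphohydrolase family gene AT1G17330 (−0.54 ± 0.0699), the auxin conjugate hydrolase gene ILL2 (−0.47 ± 0.0957), the malic enzyme gene NADP-ME4 (−0.45 ± 0.0829), RECA3 (−0.44 ± 0.0854), the transposase-derived gene AT3G13030 (−0.36 ± 0.0707) and NTH2 (−0.35 ± 0.0693). The highest were the B3 domain gene AT2G24650 (0.73 ± 0.105), the receptor kinase gene AT1G70250 (0.65 ± 0.111), AT1G71070 (0.64 ± 0.0716), AT1G68820 (0.64 ± 0.0948), the mitochondrial carrier gene MBAC1 (0.62 ± 0.0781) and DFC (0.61 ± 0.0895). AT1G71070 had 45.5, 42.1 and 46.1 TPM in prp39a libraries, 28.1, 25.02 and 28.0 TPM in smd1b, and 28.0, 29.9 and 27.3 TPM in wild type, so its prp39a totals stood apart from both other genotypes. AT2G24650 had 14.1, 11.2 and 15.2 TPM in prp39a libraries, 9.88, 9.30 and 9.87 TPM in smd1b, and 7.75, 7.77 and 8.08 TPM in wild type.

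In smd1b, 6 of the 107 totals passed, 4 higher and 2 lower, where 6.63% of all genes did (3.57% higher and 3.06% lower), a share near the background. EMB976 (0.38 ± 0.0890), DPA (0.34 ± 0.0711), the kinase gene AT1G66920 (1.05 ± 0.104) and AT1G70250 (0.45 ± 0.111) were higher, and AT5G42765 (−0.47 ± 0.0806) and the kinase gene AT1G49730 (−0.34 ± 0.0789) were lower, as log2 fold change ± SE against wild type. The count was 10 without prp39a replicate 2, 3, 2 and 1 without smd1b replicates 1, 2 and 3, and 2, 2 and 1 without wild-type replicates 1, 2 and 3. Between prp39a and smd1b, 45 of the 107 totals passed, 22 higher and 23 lower in prp39a, where 21.1% of all genes passed, 6.39% higher and 14.7% lower.

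**Figure D5:**
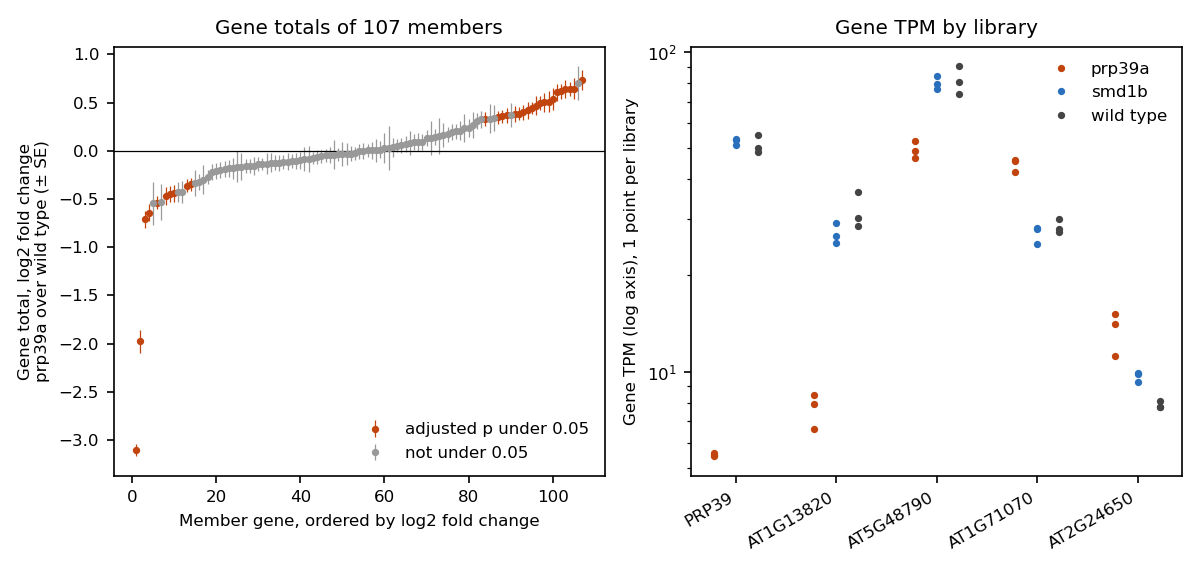
On the left, the log2 fold change of the gene total in prp39a over wild type is drawn for the 107 genes in ascending order with its standard error, in orange where the adjusted p was under 0.05; on the right, the gene TPM of 5 of them is given on a log axis with 1 point per library. The 2 lowest values on the left are PRP39 and AT1G13820, and the others lie between −0.71 and 0.73.

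In RefSeq models of TAIR10.1, the 107 genes had a median of 10 introns (quartiles 6 and 15), against 6 in the 10736 other genes at this level with at least 2 isoforms and 5 in all 15327 others. A gene with more isoforms has more ways to meet the rule. The 107 genes had a median of 6 isoforms in the table, against 2 in all 15327 others, which include genes with 1 isoform. The part of isoform number in the intron difference was not tested. The 1170 introns of the 107 genes had a median length of 98 bases, against 103 bases in the 91705 introns of the other genes. Their 5′ splice sites were much like the rest. The intron began with GT in 98.3%, against 98.7%, the last exon base was G in 78.7%, against 77.3%, and the fifth intron base was G in 50.2%, against 50.8%. The 9 bases around the site matched CAGGTAAGT in a mean of 5.87 positions, against 5.93 positions, and the run AGGTAAGT, read in the sense of the transcript, was present in 1.11% of sites, against 0.760%. These figures cover every intron of a gene, since the introns that differ between the isoforms are known in VAB2 alone. By chromosome, 35, 14, 21, 17 and 20 of the genes lay on chromosomes 1 to 5 (32.7%, 13.1%, 19.6%, 15.9% and 18.7%), against 26.1%, 15.1%, 19.7%, 15.3% and 23.3% of all 15434 genes.

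Listed genes of the splicing machinery are given beside the 107. Of 24 listed genes for U1 snRNP and Sm core proteins at this level, 1 lost 25 points or more without overlap in prp39a, which was PRP39, the mutated gene itself, and none did in smd1b. Of 19 listed SR and SR45 splicing factors, none did in either mutant. SUA, a splicing factor among the 107, is on neither list. Among all 15434 genes 1.1% lost this much without overlap in prp39a and 0.259% in smd1b, so that lists of this size allow no reading of these counts. In the other 23 U1 and Sm genes the fall ran from −17.8 to 21.4 points in prp39a. In smd1b the fall in these genes ran from −27.9 to 17.5 points. The next examples were chosen after their values were seen. AT5G51410 had a mean dominant share of 19.4% in prp39a, 27.9% in smd1b and 40.8% in wild type. PRP40A, which encodes a U1-associated protein, had 61.7% in prp39a, 62.8% in smd1b and 80.3% in wild type, so that both genes had lower means in both mutants. U1-70K, which encodes a core protein of the U1 snRNP, had higher means in both, with 72.9% in prp39a, 86.4% in smd1b and 58.5% in wild type. Among the SR genes, RS31, an arginine and serine rich splicing regulator, came nearest in prp39a, with 32.8% in prp39a, 55.3% in smd1b and 51.5% in wild type. SR30 differed in opposite directions, with 84.4% in prp39a, 44.0% in smd1b and 67.1% in wild type. Of the gene totals of the 25 U1 and Sm genes, none was higher and 1, PRP39, was lower in prp39a, and among the 20 SR and SR45 genes 2 were higher, RS31 and RS40, and 1, RS41, was lower, by the same limma fit. Of all 20585 genes, 1.73% were higher and 2.39% lower in prp39a. The paralog of PRP39A, PRP39-2 (AT5G46400), had 8.15, 7.29 and 8.58 TPM in prp39a, 8.74, 8.33 and 9.06 TPM in smd1b, and 8.20, 8.87 and 8.68 TPM in wild type, with overlapping values in all 3 genotypes.

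The limits of the rule cut through a continuous range. Just inside, the WD-40 repeat gene WDR55 fell by 25.2 points in prp39a, NADP-ME4 by 25.2 points and UAH, an enzyme of ureide breakdown, by 25.1 points. Just outside were AT3G61270 with 24.98 points, the superoxide dismutase gene FSD2 with 24.8 points and AT1G25420 with 24.6 points. On the smd1b side, AT3G58720 with 9.63 points, AT4G01880 with 9.12 points and HSFA1D with 8.72 points were inside. Outside were AT3G53100 with 10.01 points, AT5G65740 with 10.3 points and the histone deacetylase gene HDA2 with 10.4 points, although HDA2 fell by 50.9 points in prp39a.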

How the data were processed

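Isoform abundances came from 1 deposited table of TPM for 9 seedling libraries, 3 per genotype. Per the file headers these TPM were estimated per isoform with kallisto, of a version and transcript set not given in the sources used here. The genome build TAIR10 is the one named by the submitters' processing notes, which also list Trimmomatic, TopHat2 and featureCounts with no role. Each column of deposited TPM sums to 1000000, so depth is unknown and no counting interval can be given. Such estimates divide reads among similar isoforms, so shares of similar isoforms are uncertain. The table lists 82190 isoforms and 15 value columns; 9 were matched to samples by name (col, smdb1 and prp39 with a number) and 6 were not used.

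Shares were computed per library and averaged per genotype with Python 3.11.15. The members, role groups and lists were chosen with earlier results of these data known, and genes named one by one are the 20 largest falls plus those with a called total change of at least 1 on the log2 scale; other members are examples. Totals were fitted as log2(TPM + 0.5) for the 20585 genes whose mean reached 1 TPM. Isoform shares were fitted as log2 of isoform over other isoforms of the gene, each + 0.5 TPM, where the isoform's mean TPM was 0.05 to 0.95 of the gene's mean TPM. Both fits used limma 3.58.1 in R 4.3.3 on all 9 libraries, with two-sided tests and Benjamini-Hochberg adjustment over all features. Fold changes of low genes are understated by the pseudocount. In simulated data for prp39a against wild type, 200 genes among 20585 and 200 isoforms among 21990 were changed. Equal numbers were changed by 1 and by 2 on the log2 scale, up or down. Of the genes changed by 1 and by 2, 87% and 99% were recovered, and of the isoforms 6% and 76%. RefSeq models of TAIR10.1 gave names, coordinates and sequences; isoforms were matched by name, for the dominant isoform in 18 genes and the gaining one in 4. Replicates with the same number were not treated as pairs. Alternatives covered the TPM minimum, the size of fall, pooled shares, pseudocounts, filters, size factors, the libraries fitted, the trend, a replicate block and each replicate left out.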

Additional observations from a re-analysis of the deposited data

How the results depend on the processing

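With a required fall of 20 points the rule gave 185 genes with a median fall of 26.5 points, and with 30 points it gave 64 genes; minimum levels of 1 and 10 TPM gave 151 and 78 genes, and pooled shares gave 108 genes, of which 106 were among the 107. Leaving out 1 replicate at a time gave 101 to 127 genes with median falls of 31.3 to 32.2 points. In the same way, the totals called ranged over 218 to 836 genes and 12 to 31 of the 107 for prp39a against wild type, 376 to 1422 and 1 to 10 for smd1b against wild type, and 2068 to 4443 and 28 to 48 for prp39a against smd1b. The isoforms called ranged over 1387 to 2306 and 91 to 102 of the dominant ones, 98 to 427 and 0 to 1, and 1848 to 2733 and 89 to 100 in the same order of contrasts. Fitting only the 6 libraries of a contrast gave 415 genes with 16 of the 107 for totals in prp39a, and 124 isoforms with 0 dominant ones in smd1b.

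Correlations between libraries were taken on log2 gene totals after the mean of each genotype was subtracted. For same-numbered libraries of different genotypes they ran from −0.40 to 0.29, so the numbers were not taken as pairs. The replicate block gave 343 genes with 13 of the 107 for totals in prp39a, 832 genes with 2 of the 107 for totals in smd1b, and 154 isoforms with 0 dominant ones in smd1b. Size factors moved the totals in prp39a to 614 higher and 381 lower of all genes, against 357 and 493. Of 226 alternative values, 161 kept within 1.5 times the reported count or within the spread between replicates, and 65 did not; the cause was not tested. With unknown depth, low shares and values listed at 0 set no limit on how much of an isoform was present.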
